A study of Mus musculus with 8 samples.

Results

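Titin, the giant elastic protein of the sarcomere, is described here through its gene Ttn and the Ttn transcripts of the deposited tables. The members were every row with the gene name Ttn, which gave 1 of 33249 genes and 15 of 94947 transcripts. RNA of mouse myocardium was sequenced in 8 libraries, with 2 for each combination of genotype (fl/fl or CKO) and operation (Sham or MI). CKO mice carried floxed Piezo1 alleles and a tamoxifen-inducible Cre driven by the Myh6 promoter, which is active in cardiomyocytes. The fl/fl mice were littermates with floxed alleles and without the Cre, and the labels give their genotype as WT. Tamoxifen was given to induce deletion at 4 weeks of age, and the methods do not say whether fl/fl mice received it. Ligation of the left anterior descending artery, which causes myocardial infarction (MI), or a sham operation followed at 8 weeks of age, and MI hearts were taken at day 42. The labels do not say which part of the heart was taken or that the 2 libraries of a group came from different mice, so p-values measure the spread between these libraries. In bulk tissue, fewer cardiomyocytes and less titin RNA per cardiomyocyte cannot be told apart.

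Titin runs from the Z-disc to the M-band as a single chain and acts as the molecular spring that sets the passive stiffness of heart muscle. Its pre-mRNA is spliced into several forms. The N2B form omits most exons of the I-band spring and gives a short and stiff spring, the N2BA forms keep more of them and are more compliant, and the novex-3 form ends early in a large exon of its own and does not reach the thick filament. The adult mouse heart is known mainly for the N2B form. RBM20 is the splicing repressor best known for removing I-band exons of titin in the heart.

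Ttn (ENSMUSG00000051747) lies on the minus strand of chromosome 2, chr2:76703980-76982547 in GRCm38, and the deposited coordinates were those of GENCODE M21. No other gene of the table overlapped it. Of the 15 transcripts, 11 were protein-coding, 3 were retained-intron transcripts and 1 was a processed transcript. Their start and end were the same in GENCODE M21, which lists 25 Ttn transcripts. Only Ttn-203 and Ttn-202 passed the filter of a mean FPKM of at least 0.5. Ttn-203 (ENSMUST00000099981) has 347 exons and is the longest, with 107355 bases in the deposited table and 106824 in GENCODE M21. Ttn-202 (ENSMUST00000099980) has 45 exons and 16891 bases in both. It shares 44 exons with Ttn-203, lacks exon 11 of it, and ends in an exon of 6520 bases at chr2:76913944-76920463 that lies between exons 45 and 46 of Ttn-203 and in no other Ttn transcript. Of that exon 6284 bases are coding, and the layout is that of the novex-3 form. Ttn-201 (ENSMUST00000011934) has the layout of the N2B form in GENCODE M21, with 192 exons and 81843 bases. The deposited table gives it 191 exons and 81999 bases. In GENCODE M21 it lacks exon 11 and the unbroken run of exons 48 to 201 of Ttn-203, which is 154 exons and 24843 bases.

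**Figure D1:**
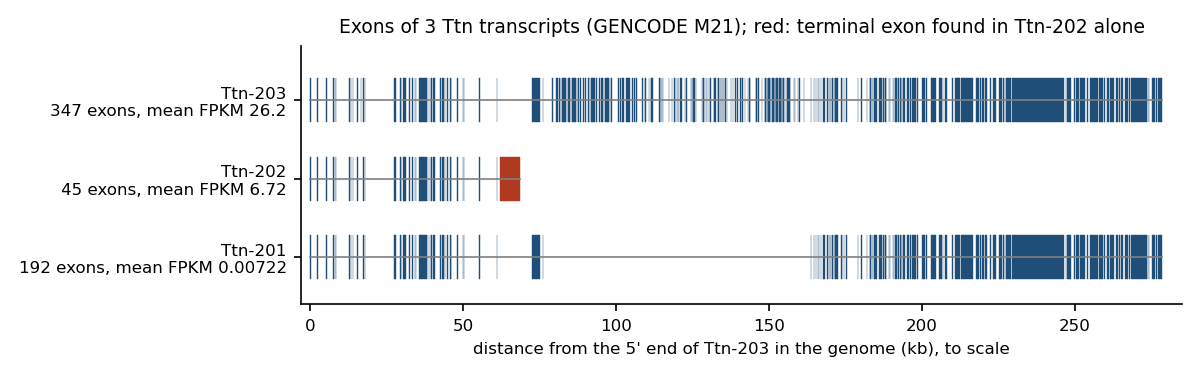
Exons of Ttn-203, Ttn-202 and Ttn-201 in GENCODE M21, drawn to scale by their distance in kb from the 5′ end of Ttn-203, with the mean FPKM over the 8 libraries beside each name. Ttn-202 stops in a large exon of its own (red), and Ttn-201 leaves out the 154 exons of Ttn-203 in the gap.

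The forms part at 2 exon joins, which are shown because the deposited levels of Ttn-202, Ttn-203 and Ttn-201 turn on which exon follows. Each sequence holds the last 45 bases of one exon in lower case and the first 45 bases of the next exon in capitals, 5′ to 3′ on the minus strand, all coding, from the GENCODE M21 transcripts. At the first join, the shared exon (chr2:76921551-76921595) continues into the terminal exon of Ttn-202 (chr2:76920419-76920463) or into exon 46 of Ttn-203 (chr2:76909909-76909953).
Ttn-202: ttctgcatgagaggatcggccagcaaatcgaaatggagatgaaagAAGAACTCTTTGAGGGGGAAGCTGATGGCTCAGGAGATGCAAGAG
Ttn-203: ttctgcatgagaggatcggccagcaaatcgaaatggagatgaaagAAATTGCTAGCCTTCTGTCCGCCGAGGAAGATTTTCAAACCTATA
At the second join, exon 47 of Ttn-203 (chr2:76906254-76906298) continues in Ttn-201 past the omitted run (chr2:76818772-76818816) and in Ttn-203 into exon 48 (chr2:76903582-76903626).
Ttn-201: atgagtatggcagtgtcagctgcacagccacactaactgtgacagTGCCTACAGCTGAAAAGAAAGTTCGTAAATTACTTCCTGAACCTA
Ttn-203: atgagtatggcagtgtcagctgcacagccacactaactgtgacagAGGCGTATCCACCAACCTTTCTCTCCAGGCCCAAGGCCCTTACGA
Ttn-202 could be measured through the 6520 bases it holds alone. In GENCODE M21, Ttn-201 has 0 bases outside Ttn-203, so that of its own sequence only the joins over the omitted exons set it apart. The deposited lengths of both differ from that annotation. The tables give estimated values per transcript and none per exon or join, and the balance of N2B and N2BA titin could not be checked beyond those estimates.

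The libraries held 73821747 to 88117573 counts, and the whole-number counts pile up at multiples of 4. Genes of the mitochondrial genome held 43.1% to 46.4% of all counts in sham and 19.9% to 24.2% after MI, so values scaled to the whole library, FPKM included, are lower for nuclear genes in sham. CPM, counts relative to library size scaled by TMM, a normalization to the bulk of the genes, are therefore given beside FPKM. Before the results, the labels were set against the targeted gene. Piezo1 was at 72.2 and 82.0 CPM in fl/fl-Sham and at 76.7 and 88.3 in the libraries labelled CKO-Sham. After MI it was at 53.5 and 64.8 in fl/fl-MI and at 56.3 and 64.6 in CKO-MI, so it was not lower in the CKO libraries, although other cell types of the heart also express it. Esr1, which names the hormone-binding part of the Cre fusion, was at 707 and 402 CPM in CKO-MI and 331 in the second library labelled fl/fl-MI, against 5.52 to 8.36 in the other 5, both CKO-Sham libraries included. Esr1 thus went against the genotype labels of 3 libraries, the second labelled fl/fl-MI and both labelled CKO-Sham. Groups were kept as labelled, fl/fl and CKO stand for the labels throughout, and any difference by genotype is one between libraries so labelled. Esr1 was high in MI libraries alone, all but the first labelled fl/fl-MI, which was at 7.75 CPM. The comparison of MI with sham is thus also largely one of libraries with and without high Esr1. The part of this in the MI values was not tested. That second fl/fl-MI library also stood apart in atrial genes, with a summed level of 19857 CPM for 5 atrial markers against 2547 to 4450 in the other MI libraries and 135 to 594 in sham. Values of Ttn are given with and without it. Replicates agreed less in fl/fl-MI than elsewhere, with an SD of the log2 difference over the 14028 tested genes of 0.79 against 0.32 to 0.45 in the other groups.

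Ttn was among the most counted nuclear genes in every library, ranking between 10 and 22 by counts, and it took 0.149% to 0.493% of all counts. Per length it stood lower in the order, ranking between 679 and 1747 by FPKM. Its counts ran from 131705 to 374563 per library, so counting error is small beside the spread between libraries.

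By FPKM, Ttn was at 17.7 and 18.8 in fl/fl-Sham, at 12.3 and 15.3 in CKO-Sham, at 24.7 and 36.5 in fl/fl-MI, and at 41.0 and 33.6 in CKO-MI. All 4 MI libraries lay above all 4 sham libraries, which on this scale was also the case for 48.6% of the genes tested. By TMM-scaled CPM it was at 2703 and 2676 in fl/fl-Sham, at 1794 and 2297 in CKO-Sham, at 2266 and 3946 in fl/fl-MI, and at 4425 and 3115 in CKO-MI. On that scale the first fl/fl-MI library fell among the sham libraries, and the other 3 MI libraries were above them all. That first library was also the only MI library with low Esr1. The order of the group means was the same on both scales, from CKO-Sham through fl/fl-Sham and fl/fl-MI to CKO-MI. On CPM, CKO-Sham lay below fl/fl-Sham, and fl/fl-MI overlapped both fl/fl-Sham and CKO-MI.

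**Figure D2:**
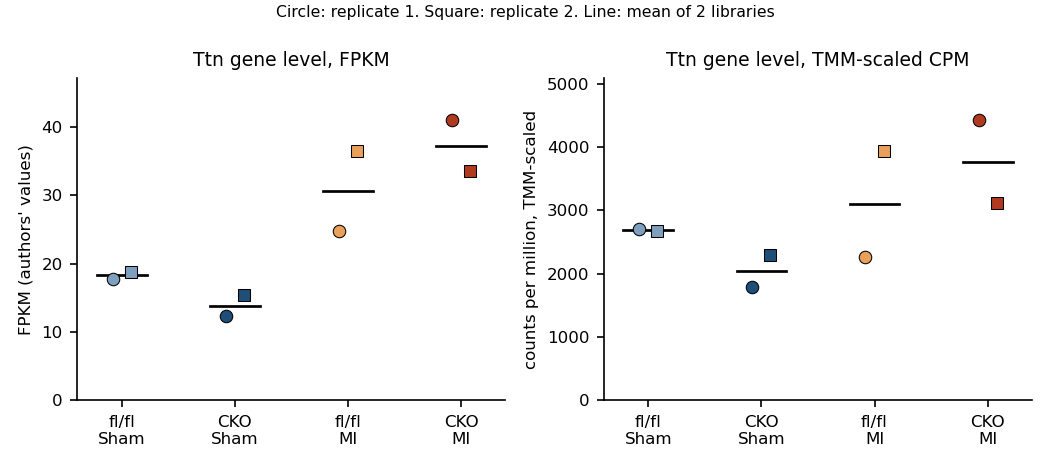
Ttn in each library by the authors' FPKM (left) and by TMM-scaled CPM (right), with the mean of the 2 libraries of a group as a line. The MI libraries lie above the sham libraries by FPKM, and on CPM the first fl/fl-MI library at 2266 lies within the sham range of 1794 to 2703.

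The first question was whether the level of Ttn differed between MI and sham hearts, where Esr1 was high in MI libraries alone. In edgeR's quasi-likelihood test, with genes called at a Benjamini-Hochberg adjusted p under 0.05, Ttn was higher in MI by 0.54 on the log2 scale (SE 0.23, 4 libraries against 4), with a p of 0.0494 and an adjusted p of 0.0986, and so was not called. Of the 14028 genes tested 40.4% were called in this comparison, 22% higher and 18.3% lower. Without the second fl/fl-MI library the log2 fold change was 0.32 (adjusted p = 0.178 by edgeR), and without the first it was 0.70 (adjusted p = 0.0178 by edgeR), so that 1 library decided the call. DESeq2 called Ttn at a log2 fold change of 0.53 (SE 0.23, adjusted p = 0.0422), and so did edgeR without the filter on low genes (0.61, adjusted p = 0.0419). Of the 14028 genes DESeq2 called 3441 higher and 3045 lower, and edgeR without the filter called 3438 higher and 2250 lower of 33249. With limma on log2(FPKM + 1) the log2 fold change was 1.03 (adjusted p = 0.00164). The median of all genes was itself 0.41 higher in MI on that scale, and relative to this median Ttn was 0.62 higher, beside 0.51 by edgeR. An exact two-sided permutation test of log2 CPM gave a difference of 0.51, with means of 11.70 ± 0.43 in MI and 11.19 ± 0.28 in sham (SD, n = 4 each, p = 0.143, adjusted p = 0.286 over 4 tests).

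Within the groups labelled fl/fl and CKO, where Esr1 puts 3 labels in doubt, the log2 fold change of Ttn after MI was 0.21 in fl/fl (SE 0.32, edgeR adjusted p = 0.679) and 0.88 in CKO (SE 0.33, edgeR adjusted p = 0.0896). Of all genes 18.5% were called in fl/fl and 24.7% in CKO. The value in fl/fl came from 2 libraries that differed by more than the groups did, and without the second fl/fl-MI library it was -0.25. In CKO, DESeq2 called Ttn (adjusted p = 0.0227), where it called 2409 genes higher and 2317 lower. The difference between the 2 genotypes, tested as an interaction, was 0.67 (SE 0.46, edgeR adjusted p = 0.728). Without the second fl/fl-MI library the interaction was 1.13 (edgeR adjusted p = 0.228).

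The second question was whether Ttn differed with the genotype label, which Esr1 puts in doubt for 3 libraries. Ttn was 0.28 higher on the log2 scale in CKO-MI than in fl/fl-MI (SE 0.32, edgeR adjusted p = 0.855), and the 2 groups overlapped. Without the second fl/fl-MI library this was 0.73 (edgeR adjusted p = 0.393), and without the first it was -0.05. In CKO-Sham both libraries were below both fl/fl-Sham libraries, with a log2 fold change of -0.39 (SE 0.32, edgeR adjusted p = 1.0). An exact permutation test of 2 libraries against 2 cannot go below a p of 0.33. Over both operations, CKO and fl/fl libraries differed by -0.05 in log2 CPM (exact permutation test, p = 0.914, n = 4 each). For CKO-MI against fl/fl-MI the edgeR test called 0% of the genes, and 0% for the interaction. At an unadjusted p under 0.05 it had 1166 and 1191 genes, limma on log2(FPKM + 1) called 0 in both, and DESeq2 called 67 higher and 144 lower for the first and 60 and 70 for the interaction. Between CKO-Sham and fl/fl-Sham 0.00713% of the genes, 1 gene, was called by edgeR.

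Ttn-203, the longest transcript, was given most of the titin signal in the deposited estimates and followed the gene. Whether the reads counted for it came from it or from the N2B form, which in GENCODE M21 lies wholly within it, could not be checked. Its FPKM was 18.8 and 19.9 in fl/fl-Sham, 13.0 and 16.2 in CKO-Sham, 26.0 and 37.6 in fl/fl-MI, and 43.1 and 35.5 in CKO-MI. By FPKM the 4 MI libraries were all above the 4 sham libraries, as was the case for 48.6% of the genes tested. By TMM-scaled CPM the first fl/fl-MI library, at 2273, lay within the sham range of 1698 to 2574. Ttn-203 was 0.61 higher in MI on the log2 scale (SE 0.23), with an edgeR p of 0.0408 and an adjusted p of 0.127, where 16.9% of the 26966 transcripts tested were called. DESeq2 called it at 0.62 (adjusted p = 0.0226), where it called 5891 transcripts higher and 4715 lower. It was 0.40 without the second fl/fl-MI library (edgeR adjusted p = 0.207) and 0.76 without the first (edgeR adjusted p = 0.0598).

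Ttn-202, the novex-3-like transcript, was the form with the larger difference. Its FPKM was 3.91 and 4.37 in fl/fl-Sham, 2.76 and 3.28 in CKO-Sham, 6.47 and 14.7 in fl/fl-MI, and 10.4 and 7.84 in CKO-MI. Every MI library was above every sham library, and the second fl/fl-MI library was the highest. By TMM-scaled CPM it was at 84.5 and 87.6 in fl/fl-Sham and at 56.9 and 69.3 in CKO-Sham. In fl/fl-MI it was at 89.1 and 234, and in CKO-MI at 168 and 109, so the groups did not overlap on this scale either, although the first fl/fl-MI library was close to fl/fl-Sham. Of the genes tested 48.6% were separated so on FPKM, and the share of transcripts was not counted on either scale. The log2 fold change of Ttn-202 was 1.02 (SE 0.34), with an edgeR p of 0.0249 and an adjusted p of 0.0942, and so it was not called. DESeq2 called it at 1.04 (adjusted p = 0.00641), among the 5891 transcripts it called higher, with 4715 lower. Without the second fl/fl-MI library it was 0.59 (edgeR adjusted p = 0.107), and without the first 1.28 (edgeR adjusted p = 0.0237). Neither transcript was called for genotype, where edgeR called 0% of the transcripts between CKO-MI and fl/fl-MI, 0.126% between CKO-Sham and fl/fl-Sham and 0.0334% for the interaction. For the first of these, 1339 transcripts had an unadjusted p under 0.05, and DESeq2 called 362 higher and 479 lower and limma on log2(FPKM + 1) called 11 and 25.

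The share of each transcript was taken as its part of the summed FPKM of all 15 Ttn transcripts, which corrects for the difference in length between the main forms. Ttn-202 made up 17.1% and 17.9% in fl/fl-Sham, 17.3% and 16.6% in CKO-Sham, 19.7% and 27.8% in fl/fl-MI, and 19.3% and 18.0% in CKO-MI. The MI libraries were all above the sham libraries, the nearest pair being 18.0% and 17.9%, and 6.47% of all transcripts with a share of 1% to 99% were separated in this direction. The mean was 21.2% ± 4.45 in MI and 17.2% ± 0.54 in sham (SD, n = 4 each), a difference of 3.95 percentage points with a p of 0.0286 in an exact two-sided permutation test, the smallest it can give, and an adjusted p of 0.114 over 4 tests. Without the second fl/fl-MI library the difference was 1.75 percentage points, where 3 libraries against 4 cannot go below an exact p of 0.0571. That library held 27.8% and was the one with the high atrial genes, and the part of atrial RNA in its titin forms was not tested. Ttn-203 made up 81.1% to 82.2% in sham and 71.1% to 81.5% in MI, which overlapped (exact permutation test, p = 0.0857, adjusted p = 0.171). CKO libraries had 2.82 percentage points less Ttn-202 than fl/fl libraries (exact permutation test, p = 0.314), a value that was 0.43 without the second fl/fl-MI library.

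**Figure D3:**
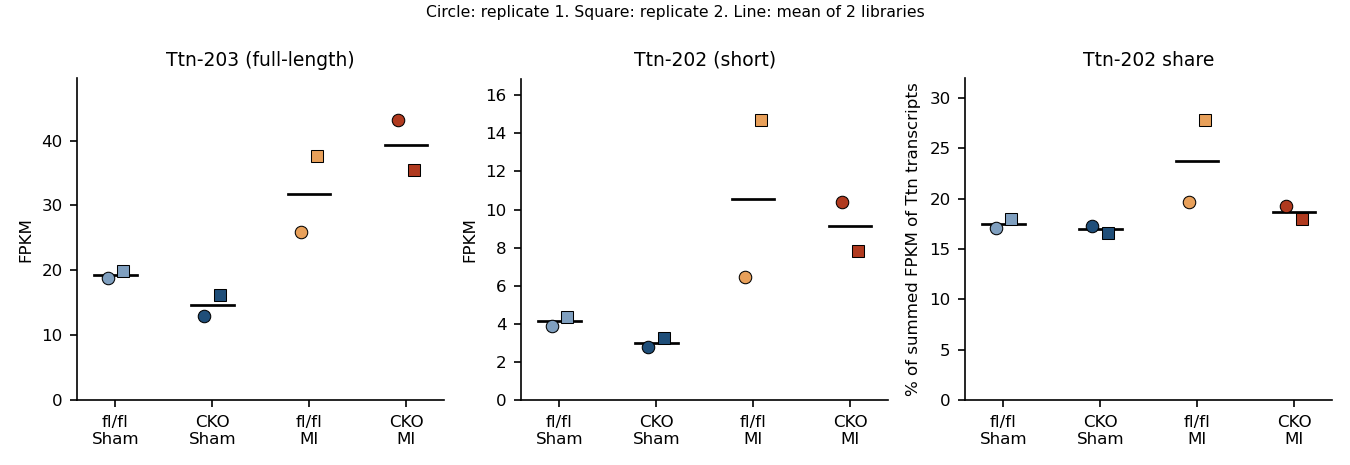
FPKM of Ttn-203 and Ttn-202 and the share of Ttn-202 in the summed FPKM of all Ttn transcripts (%), in each library, with the mean of the 2 libraries of a group as a line. The second fl/fl-MI library stands out by its Ttn-202 share of 27.8%, and the other 7 libraries lie between 16.6% and 19.7%.

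In the count-based test of transcript usage (diffSpliceDGE in edgeR), which compares a transcript with the other transcripts of its gene, Ttn-202 was 0.40 higher in MI on the log2 scale (adjusted p = 1.0) and Ttn-203 was at -0.02 (adjusted p = 1.0). The value of Ttn-202 was 0.19 without the second fl/fl-MI library. Of the 19011 transcripts in this test 1.93% were called for MI, 0.216% between CKO-MI and fl/fl-MI, 0.658% between CKO-Sham and fl/fl-Sham and 0.526% for the interaction. Neither Ttn transcript was called in any of these. As a share of counts, with no correction for length, Ttn-202 was 3.08% to 3.35% in sham and 3.36% to 5.79% in MI.

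The other 13 Ttn transcripts together made up 0.529% to 1.63% of the summed FPKM. Ttn-207, a retained-intron transcript of the 5′ end, was the highest of them, at up to 0.45 FPKM. Ttn-201, with the N2B layout, was listed above 0 in 4 libraries and had a mean of 0.00722 FPKM. Ttn-205 and Ttn-204, which are also long coding forms, had means of 0.00462 and 3.15e-05 FPKM. Of the 13, 6 were listed above 0 in at most 4 libraries. The estimated level of the N2B layout near 0 is a value of the deposited tables, and no read across its join could be checked.

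Titin was next set against other transcripts of cardiomyocytes, to ask whether it moved with them. The measure was log2 CPM of Ttn minus the mean log2 CPM of 14 cardiomyocyte markers, all of them expressed. It was 0.33 and 0.28 in fl/fl-Sham, -0.08 and 0.28 in CKO-Sham, 0.59 and 0.94 in fl/fl-MI, and 0.81 and 0.85 in CKO-MI. All 4 MI libraries were above all 4 sham libraries, as were those of 16.1% of all genes on this measure. The mean was 0.80 ± 0.15 in MI and 0.20 ± 0.19 in sham (SD, n = 4 each, exact two-sided permutation test, p = 0.0286, the smallest it can give, adjusted p = 0.114 over 4 tests). The difference was 0.60, between 0.50 and 0.67 with each library left out, and it turned to -0.32 with Ryr2 alone as the denominator and was 1.07 with Myh6 alone. The first fl/fl-MI library, which had the lowest Ttn of the MI libraries on CPM, also had the lowest mean of the cardiomyocyte markers (10.56 against 10.76 to 11.30 in the other 7) and the highest sum of 9 fibroblast markers (6692 CPM against 2463 to 5649 in the other MI libraries and 1495 to 1667 in sham), and their part in its Ttn level was not tested.

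Myh6, the main myosin heavy chain of the adult mouse heart, shows how the ratio moved. Counts of Ttn were 0.192 and 0.179 of those of Myh6 in fl/fl-Sham and 0.129 and 0.170 in CKO-Sham. They were 0.455 and 0.212 of them in fl/fl-MI and 0.377 and 0.401 in CKO-MI, so every MI library was above every sham library. How many of all genes were separated so relative to Myh6 was not counted. Ryr2, the calcium release channel of the sarcoplasmic reticulum and another long transcript, rose after MI by 0.89 on the log2 scale (SE 0.26, edgeR adjusted p = 0.0296), a call that held without either fl/fl-MI library and was lost without any 1 of the other 6, with an edgeR adjusted p of up to 0.106. Counts of Ttn were 4.91 to 5.91 times those of Ryr2 in sham and 3.61 to 5.02 times in MI, which overlapped. These ratios are of counts and are not levels per length.

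**Figure D4:**
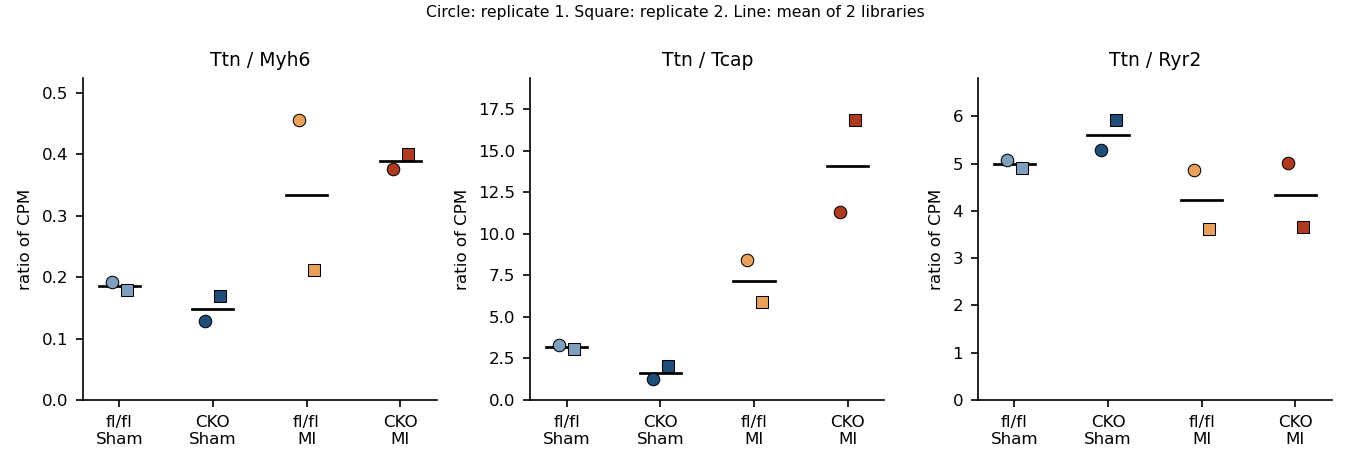
Ratio of the TMM-scaled CPM of Ttn to that of Myh6, Tcap and Ryr2 in each library, with the mean of the 2 libraries of a group as a line. The ratios to Myh6 and Tcap are higher in every MI library than in every sham library, and the ratio to Ryr2 is not.

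Partners of titin were taken from lists ordered along the sarcomere. The lists share members, among them Ankrd1 and Mypn of the Z-disc and I-band lists, so their counts are not independent. At the Z-disc, where the N terminus of titin is anchored, 11 of the 16 tested of 17 members rose after MI and 1 fell, where 22% of all genes tested rose and 18.3% fell. Their median log2 fold change was 0.91, against 0.03 over all genes. Ankrd1, a stretch-responsive ankyrin repeat protein that binds the N2A element of titin, rose by 3.43 (SE 0.31, edgeR adjusted p = 0.000696). It was at 238 to 619 CPM in sham and 2475 to 5181 in MI. Flnc, which encodes the actin crosslinker filamin C, rose by 2.41, and Mypn (myopalladin) rose by 1.27, Nebl (nebulette) by 1.34, Palld (palladin) by 1.36 and Synpo2 by 1.10. Tcap, which encodes telethonin, the protein that joins the N termini of 2 titin chains, was the member that fell. It was at 819 and 877 CPM in fl/fl-Sham and 1420 and 1138 in CKO-Sham, against 269 and 667 in fl/fl-MI and 390 and 185 in CKO-MI. The groups did not overlap, a separation not counted over all genes on CPM, and the log2 fold change was -1.51 (SE 0.35, edgeR adjusted p = 0.0136). This call was lost without the second fl/fl-Sham or the first CKO-Sham library, where the edgeR adjusted p was at most 0.0526. Counts of Ttn were 1.26 to 3.30 times those of Tcap in sham and 5.91 to 16.8 times in MI.

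In the list of partners of the I-band spring and the N2 elements, 11 of the 14 tested of 16 members rose and 0 fell. Of all genes tested 22% rose and 18.3% fell. The median of the list was 1.21, against 0.03 over all genes. At an unadjusted p under 0.05 there were also 11 members, where 7044 of the 14028 genes had such a p, and DESeq2 found 0 members lower. Without the first fl/fl-MI or the first CKO-MI library 1 member was lower, Smyd2 and Fhl2 in turn. Fhl1, a LIM protein that binds the N2B element, rose by 1.49 (SE 0.15, edgeR adjusted p = 0.000866), from 74.7 to 97.4 CPM in sham to 154 to 294 in MI. Hsp90aa1, a chaperone, rose by 1.78, Prkg1, a cyclic GMP-dependent kinase that phosphorylates titin, by 1.78, and Dmd (dystrophin) by 1.16. Fhl2, the LIM relative of Fhl1, was not called, at -0.29 (SE 0.17, edgeR adjusted p = 0.194). Cryab, the small heat shock protein alpha B-crystallin, was at 0.11 (edgeR adjusted p = 0.584) and Hspb1, its relative, rose by 1.26.

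Along the A-band, 2 of the 7 members rose and 2 fell, which is close to the 22% and 18.3% of all genes, and the median was 0.59. Myh7, the fetal and slow myosin heavy chain, rose by 1.72 (SE 0.54) and Mylk3, the cardiac myosin light chain kinase, by 0.99 (SE 0.30), with edgeR adjusted p of 0.0419 and 0.0344. The ventricular light chains Myl2 and Myl3 fell, Myl2 by 1.22 on the log2 scale and Myl3 with an edgeR adjusted p of 0.0121. Myh6 was at -0.40 (SE 0.40, edgeR adjusted p = 0.46). The count of 2 higher members was 0 in edgeR with the replicate number as a block and 0 without either fl/fl-Sham library, either CKO-Sham library or the first CKO-MI library, and 1 without the second CKO-MI library. The count of 2 lower members was 0 without the second fl/fl-Sham or the first CKO-Sham library, where the edgeR adjusted p was at most 0.0614 for Myl2 and 0.0545 for Myl3.

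At the M-band, where titin carries its kinase domain, 8 of the 16 members rose and 2 fell. Of all genes tested 22% rose and 18.3% fell, so the members that fell were not above that share. The median of the list was 0.21, against 0.03 over all genes. Cmya5 (myospryn) rose by 1.69 (SE 0.22, edgeR adjusted p = 0.00191), and it was at 128 to 222 CPM in sham and 349 to 687 in MI. The ubiquitin ligases Trim63 and Trim55, which bind titin near its kinase, rose by 1.21 and 1.46. Myom2 rose by 0.99 and Myom1, the main M-band crosslinker, by 0.45 (SE 0.14, edgeR adjusted p = 0.0382). Sqstm1, an autophagy receptor, rose by 0.67. Ckm, the muscle creatine kinase, fell by 1.28 and Speg fell by 0.59. The calls near the threshold rested on single libraries. Myom1 was called in 2 of the 8 fits that left out a library, those without the second fl/fl-MI or the second CKO-MI library, and its edgeR adjusted p was up to 0.134 in the others. The count of higher M-band members was 5 without the first fl/fl-Sham library and 4 without the second fl/fl-Sham or the first CKO-Sham library, the latter pair being those without which Sqstm1 was not called. Without the second fl/fl-MI library 4 M-band members were lower, and without either fl/fl-Sham, the second CKO-Sham or the second CKO-MI library 1 was.

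**Figure D5:**
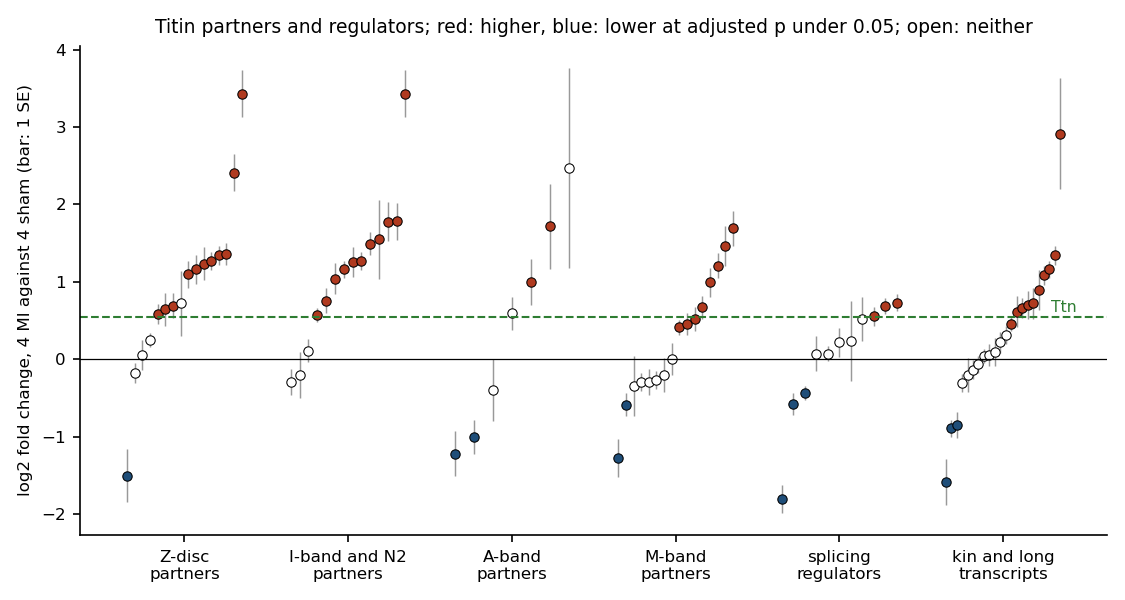
Log2 fold change (4 MI against 4 sham libraries, bar 1 SE) of each tested member of 6 lists, red where higher and blue where lower at an edgeR adjusted p under 0.05. Most Z-disc and I-band partners lie above the dashed line of Ttn at 0.54, and A-band partners and splicing regulators lie on both sides of 0.

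Of 11 regulators of titin splicing, 3 rose, 3 fell and 5 did not pass the test, with a median log2 fold change of 0.22. These counts too are close to the 22% and 18.3% of all genes. Rbm20 was at 145 and 158 CPM in fl/fl-Sham and 151 and 171 in CKO-Sham. It was at 115 and 235 in fl/fl-MI and 172 and 135 in CKO-MI, so the groups overlapped, and its log2 fold change was 0.07 (SE 0.23, edgeR adjusted p = 0.83). The RNA-binding proteins Celf1, Rbfox2 and Qk rose by 0.73, 0.69 and 0.55. Khdrbs3 and Srpk1, a kinase of splicing factors, fell by 0.58 and by 0.44. Clk1, another kinase of splicing factors, fell by 1.80 (SE 0.18, edgeR adjusted p = 0.00092), from 221 to 327 CPM in sham to 52.2 to 99.8 in MI, and was called without any 1 library. Khdrbs3 was called only without one or the other fl/fl-MI library, with an edgeR adjusted p of up to 0.0675 in the other 6 fits, and Qk was not called without the second fl/fl-Sham or the first CKO-Sham library (up to 0.0565).

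Genes with very long transcripts were listed to set Ttn beside other long mRNAs, which were not matched to it in size. Of 24 members 22 were tested, and 10 rose and 3 fell, where 22% of all genes tested rose and 18.3% fell. The median of the list was 0.27. Nebl, Dmd and Ank3 (ankyrin G) rose by 1.34, 1.16 and 1.08, and Syne1 and Syne2, which encode the giant nesprins of the nuclear envelope, fell by 0.85 and by 0.90. Hmcn1 (hemicentin) fell by 1.59. Members of this list thus went both ways, and the 3 that fell are close to the 18.3% of all genes. Without single sham libraries or the first CKO-MI library the count of higher members was 4 to 6.

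By genotype, edgeR called 0 of the 80 distinct genes tested in the 6 lists between CKO-MI and fl/fl-MI and 0 between CKO-Sham and fl/fl-Sham, with 10 and 3 at an unadjusted p under 0.05. Of the 14028 genes tested, 1166 and 546 had such a p. DESeq2 called Mybphl, Myot and Pdlim3 in the first of these comparisons and 0 in the second, and limma on log2(FPKM + 1) called 0 in both. Over all genes DESeq2 called 67 higher and 144 lower in the first and 20 and 14 in the second. For the interaction edgeR called 0, with 9 at an unadjusted p under 0.05, DESeq2 called Myot and Mypn, and limma called 0. Over all genes 1191 had such a p for the interaction, and DESeq2 called 60 higher and 70 lower. The smallest p in CKO-MI against fl/fl-MI was that of Pdlim3, an alpha-actinin-binding LIM protein, at -0.97 (SE 0.22, edgeR adjusted p = 0.489). Myot (myotilin) was at 2.60 (SE 0.63, edgeR adjusted p = 0.502), and Mypn at 0.63 (edgeR adjusted p = 0.516). Mybphl, an atrial relative of myosin-binding protein C, was at -7.17 (SE 2.18, edgeR adjusted p = 0.549), with 284 CPM in the second fl/fl-MI library and 0.866 to 1.11 in the other MI libraries. In sham hearts Mypn was at -0.67 (SE 0.17, edgeR adjusted p = 1.0), and for the interaction it had an edgeR adjusted p of 0.56. These values rest on the genotype labels that Esr1 puts in doubt for 3 libraries.

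The genes whose log2 CPM followed that of Ttn most closely over the 8 libraries were, by Pearson's r, Tmem38a (0.98), Gnpat (0.98), Suclg2 (0.98), Timmdc1 (0.97), Ppm1l (0.97), Bpnt1 (0.96), Tmem143 (0.96), Prdx3 (0.96), Cs (0.96) and Mlip (0.96). Tmem38a encodes a cation channel of the sarcoplasmic reticulum, Suclg2 and Cs (citrate synthase) are enzymes of the citrate cycle, Timmdc1 is an assembly factor of complex I, Prdx3 a mitochondrial peroxiredoxin and Mlip a muscle lamin-interacting protein. Tmem38a was at 114 to 162 CPM in sham and at 129, 200, 215 and 161 in the MI libraries. The first fl/fl-MI library lay among the sham values as for Ttn. So did the second CKO-MI library, which for Ttn lay above them. Among the members of the 6 lists, the highest r with Ttn was that of Ryr2 (0.94), followed by Smyd1 (0.90), which encodes a muscle methyltransferase, Vps13d (0.90) of the long transcripts, and Actn2 (0.90), which encodes alpha-actinin of the Z-disc, and Tcap was at -0.44. These values share the 8 libraries and their scaling, and they describe 14027 genes with no test.

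The lists of other cell types give the composition beside these results. Of 12 markers of skeletal muscle, which also uses titin, 3 passed the filter, and the fast myosins Myh1, Myh2 and Myh4 were at a mean of 0.043, 0.0314 and 0.0508 FPKM. The summed level of this list was 15.1 to 30.8 CPM in sham and 19.4 to 56.4 in MI. Of 9 fibroblast markers 8 rose, and of 7 endothelial markers 5 fell, from a sum of 1367 to 1626 CPM in sham to 544 to 956 in MI. Of 7 macrophage markers 3 rose, and they summed to 428 to 478 CPM in sham and 406 to 1025 in MI. Of 14 cardiomyocyte markers 4 rose and 4 fell, close to the 22% and 18.3% of all genes that rose and fell. Of 7 wall stress genes 6 rose. The part of this composition in the level of Ttn was not tested.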

How the data were processed

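Gene and transcript tables of 8 libraries were analysed, grouped by their labels. The authors made poly(A) libraries with marked strands, sequenced them as paired ends and trimmed them with cutadapt 1.9 (submitters' processing notes). The aligner, counter and annotation are not given in the sources used here. The authors deposited whole-number counts, not normalized, and FPKM, normalized to length and library size. Every per-sample column was used.

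Features with a mean FPKM of at least 0.5 (14028 genes, 26966 transcripts) were tested on counts with edgeR 4.0.16 (R 4.3.3; quasi-likelihood, TMM, a mean per group over all 8 libraries), with Benjamini-Hochberg adjustment over all features. Standard errors were the log2 fold change divided by the square root of F. Transcript usage was tested with diffSpliceDGE. Single values were compared by exact permutation tests (SciPy 1.17.1). Alternatives included DESeq2 1.42.0 and limma 3.58.1. Tests were tried on simulated data. The GENCODE M21 annotation and transcripts (GRCm38) gave exons and sequences.

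Ttn, the lists and the tests were chosen with earlier results of these data known. The genes named were Ttn, its transcripts, up to 6 called members per list by smallest p (the 2 with smallest p where none was called), Tcap, Ankrd1, Fhl2, Myom1 and Rbm20, and the 10 genes most like Ttn by Pearson's r of log2(CPM + 0.01). Ryr2, Myh6, Myom2, Speg, Cryab, Hspb1, Smyd1, Vps13d, Actn2 and genes that check labels or cell types were named after their values were seen. Another gene of the rule is not reported here.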

Additional observations from a re-analysis of the deposited data

How the results depend on the processing

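Replicate numbers were not treated as pairs. Deviations of same-numbered libraries correlated between -0.20 and 0.05 over 6 pairs of groups, the lowest being fl/fl-MI with CKO-MI. A batch that does not follow the replicate numbers would not show in these values. With the replicate number as a block, Ttn was 0.55 higher in MI (adjusted p = 0.137 by edgeR), Ttn-203 0.61 and Ttn-202 1.01, no Ttn call changed, and the A-band members called higher fell from 2 to 0. The alternatives other than left-out libraries put the MI difference of Ttn between 0.46 and 1.07 on the log2 scale, with adjusted p from 0.00144 to 0.137. It was called without the filter (0.61), by DESeq2 (0.53) and by limma on log2(FPKM + 1) (1.03) and log2(FPKM + 0.1) (1.07). In CKO it was called by the same settings, at 0.97, 0.88, 1.37 and 1.43, and in fl/fl by limma alone, at 0.69 and 0.71. On the limma scales the median of all genes in fl/fl was itself 0.42 and 0.57 higher in MI. Relative to it Ttn was 0.27 and 0.14 higher, beside 0.16 by edgeR, and limma called 4801 and 4976 genes higher there. In CKO that median was 0.39 and 0.54 higher, and relative to it Ttn was 0.98 and 0.89 higher, beside 0.87 by edgeR. For MI, DESeq2 and both limma scales called Ttn-203 (0.62, 1.02 and 1.06) and Ttn-202 (1.04, 1.20 and 1.39), and in CKO they called Ttn-203 (0.98, 1.37 and 1.43). The median of all transcripts on the limma scales was itself 0.32 and 0.49 higher for MI and 0.29 and 0.46 higher in CKO. The cause of the differences between settings was not tested. By the exact test at an unadjusted p, Ttn passed on log2(FPKM + 1) (1.03) and the Ttn-203 share did so among protein-coding transcripts (-3.92 percentage points). With Ryr2 as the denominator, Ttn relative to cardiomyocyte genes turned to -0.32 for MI and to 0.10 for CKO against fl/fl.

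With each library left out, Ttn lay between 0.32 and 0.70 for MI, between -0.25 and 0.53 in fl/fl, between 0.58 and 1.12 in CKO and between -0.047 and 0.73 for CKO-MI against fl/fl-MI. Ttn-203 in fl/fl lay between -0.17 and 0.56. Ttn-202 lay between 0.59 and 1.28 for MI, between -0.73 and 0.63 for CKO-MI against fl/fl-MI and between -0.29 and 1.08 for the interaction. For CKO against fl/fl, the exact differences lay between -0.28 and 0.16 in log2 CPM and between -0.20 and 0.11 relative to cardiomyocyte genes. Called members lay between 0 and 1 (Z-disc, lower), 0 and 1 (I-band, lower), 0 and 3 (A-band, higher), 0 and 3 (A-band, lower), 4 and 8 (M-band, higher), 1 and 4 (M-band, lower) and 4 and 10 (long transcripts, higher). In these fits a group left with 1 library was assumed to vary like the other groups. No Ttn transcript was called for usage under any alternative run. The Ttn-202 share was higher in MI by 1.75 to 5.01 percentage points with each library left out, where 3 libraries against 4 cannot pass an exact test. The number of libraries, more than depth, limits the precision.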
